A study of Mus musculus with 14 samples.

Results

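Liver RNA of male mice aged 8 wk (M8) was compared with liver RNA of male mice aged 4 wk (M4) on 2 dye-swapped Agilent whole mouse genome arrays, which are 2 of the 14 arrays of the series. All mice were of the CD-1 strain, and no treatment is named in the labels. Each RNA pool held liver from 6 male mice of 1 age, and the 2 arrays carried separate pools, with M8 in the green channel on replicate 1 and in the red channel on replicate 2. The other 12 arrays compared male with female liver at 3, 4 and 8 wk, M8 with males of 3 wk (M8/M3), and females of 8 wk with those of 3 and 4 wk (F8/F3, F8/F4). The deposited log10 ratio of each spot was turned to M8 over M4, converted to log2 and averaged over the spots of a probe. A gene was represented by its brightest probe, which gave 19751 named genes. A pool averages its mice, so the spread between the 2 arrays holds the difference between pools and between hybridizations and no spread between single mice.

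The weeks between 4 and 8 wk take the male mouse through puberty. Hepatocytes leave the cell cycle as the liver nears its adult size, the liver loses the last of its blood-forming cells, and pulses of pituitary growth hormone, which act through the transcription factor STAT5, come to set the adult male pattern of cytochromes P450, sulfotransferases and major urinary proteins. M8/M4 addresses which transcripts of male liver changed over these weeks, and F8/F4, measured on female pools and other arrays, gives the change of female liver over the same ages. The M8/M4 and F8/F4 arrays of equal replicate number lay on the same slide with the same dye orientation.

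On the M8/M4 arrays, 66.0% to 69.6% of the spots in a channel were well above background. M8, M4 or both were well above background on both arrays for 14935 genes, and these were tested. The other 4816 genes were not. The 2 arrays gave a Pearson's r of 0.81 and a Spearman's rho of 0.68 over the 14935 genes, which are not independent replicates. The SD of the 2 log2 values of a gene had a median of 0.12. The log2 ratios spread more widely on replicate 2 (SD over genes 0.67) than on replicate 1 (0.56). Replicate number, slide and dye orientation change together between the 2 arrays and cannot be told apart.

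The words "rose" and "fell" are kept for genes past both thresholds, which were an adjusted p of 0.05 in limma and a change of 1.5-fold. Where a gene is given 2 values with no other comparison, probe or quantity named, they are its log2 M8/M4 on replicate 1 and on replicate 2. Of the 14935 genes, 666 (4.46%) rose from 4 to 8 wk and 954 (6.39%) fell. All 1620 had the same direction on both arrays, as the plot of both arrays shows. Among the genes that rose, the median log2 ratio was 1.03, and among those that fell it was -0.99. With genes whose M8 or M4 signal was well above background on neither array set at a bound (explained beside the mitotic genes), the medians were 0.96 and -0.91, 306 genes were more than 2-fold higher in M8 and 23 more than 8-fold, and 415 were more than 2-fold lower and 42 more than 8-fold. Replicate 2 lay further from 0 than replicate 1 for 71.2% of the genes that rose and 74.9% of those that fell. Without replicate 2, 381 genes rose and 587 fell, of which 347 and 551 were also called with both arrays, and without replicate 1, 528 rose and 822 fell.

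**Figure D1:**
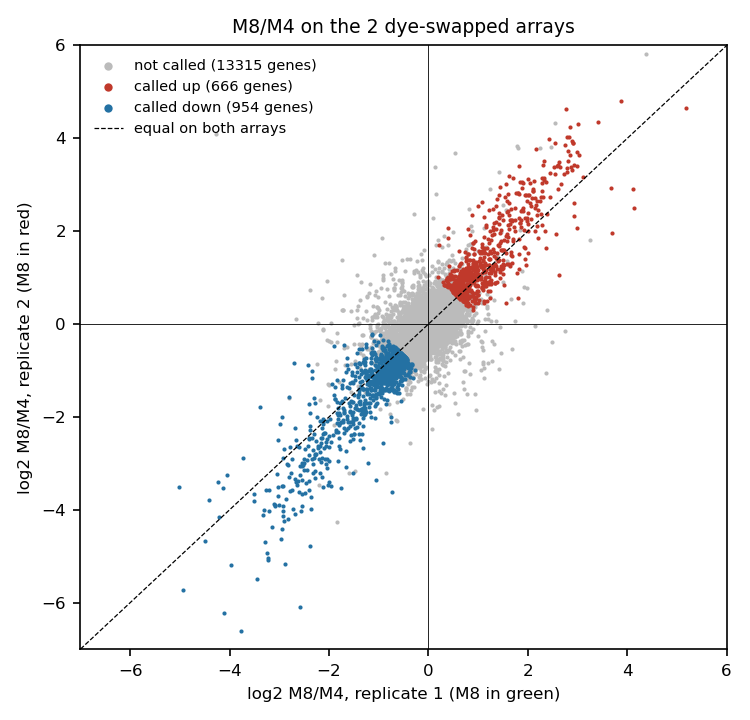
Log2 M8/M4 of the 14935 tested genes on replicate 1 (x axis) and replicate 2 (y axis), with the 666 genes that rose in red, the 954 that fell in blue and the rest in grey. The dashed line marks equal values, and the called genes lie at the lower left and upper right, more of them further from 0 on the y axis than on the x axis.

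Over the same ages in female liver, F8/F4 called 331 (2.22%) of these 14935 genes up and 544 (3.64%) down. Of the genes that rose in male liver, 194 also rose in female liver, which was 29.1% of the male list and 58.6% of the female list. Of the genes that fell, 451 also fell in female liver, 47.3% of the male list and 82.9% of the female list. The sign of F8/F4 was that of M8/M4 for 91.0% of the genes that rose and 92.7% of those that fell. Their F8/F4 medians were nearer 0, at 0.47 and -0.61. The genes were chosen on M8/M4, which favours values further from 0 there, so no smaller female change is read from these medians. Over all 14935 genes, M8/M4 and F8/F4 had a Pearson's r of 0.735, given as a description.

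Whether males and females changed differently was tested directly in limma, by subtracting F8/F4 from M8/M4. The change was higher in males for 114 (0.752%) and lower for 88 (0.58%) of 15164 genes. This fit takes the arrays as independent, although by the paper's number of mice arrays that hold the same group drew on the same mice. The male-higher genes included 101 that rose in M8/M4, and the male-lower genes included 66 that fell. The count was 73 in place of 202 without M8/M4 replicate 2, 70 and 62 without F8/F4 replicate 1 and 2, 121 with slide as a block, 69 with pools taken as shared entered in the covariance and 668 with a fit of 6 group means. It was 0 in limma fits of the age comparisons only (375 higher and 355 lower in males at an unadjusted p below 0.05, lowest adjusted p = 0.0816) and of the M8/M4 and F8/F4 arrays only (291 and 268). Acot3, which encodes a peroxisomal acyl-CoA thioesterase, was the gene called in opposite directions in the sexes. Its log2 M8/M4 was -2.20 and -2.90 on the 2 arrays, its log2 F8/F4 was 0.78, and the difference was -3.33 (SE 0.28, adjusted p = 0.0078).

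**Figure D2:**
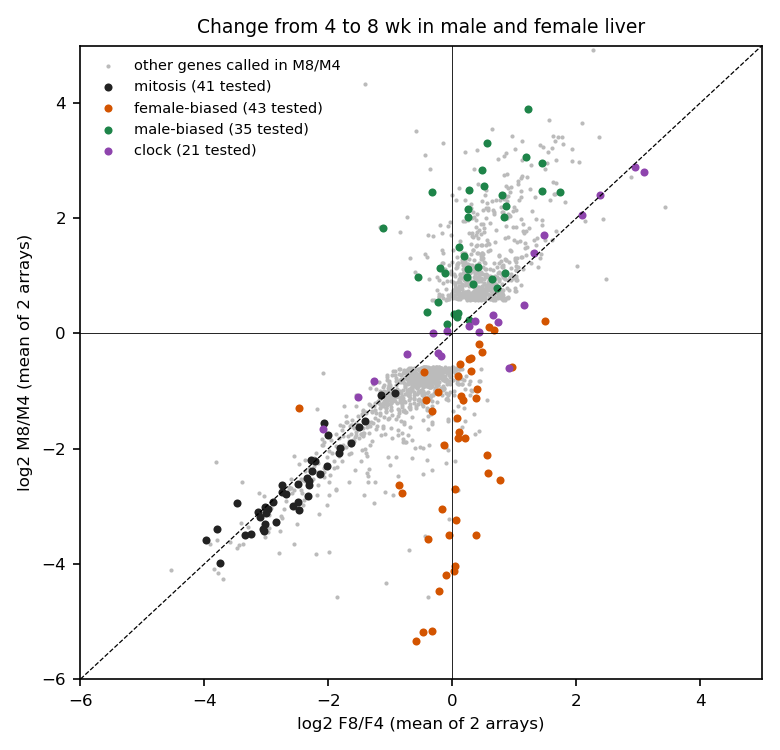
Log2 F8/F4 (x axis) against log2 M8/M4 (y axis), each the mean of 2 arrays, for genes called in M8/M4 (grey) and for all tested members of 4 gene lists (colours). The dashed line marks equal change in both sexes, and the mitosis and clock members lie near it, the female-biased members spread downward near 0 on the x axis and the male-biased members spread upward.

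Of the 15 genes with the lowest ratios among called genes with M8 and M4 each well above background, 7 were on the list of adult female-biased liver genes and 5 also fell in F8/F4. That list holds 43 of the 14935 tested genes. Its members were chosen for their bias at 8 wk, which shares the M8 group, so the overlap is not independent evidence. Cyp3a44, a female-predominant P450, had the lowest ratio, with log2 M8/M4 of -4.95 and -5.74 on the 2 arrays (mean -5.34, SE 0.26, adjusted p = 0.000127). Hao2, which encodes a hydroxyacid oxidase, read -3.78 and -6.60, and the organic anion transporter Slc22a27 read -4.11 and -6.22. Replicate 2 was the lower array for 14 of the 15 genes.

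Hsd3b1, a 3beta-hydroxysteroid dehydrogenase of steroid synthesis, was among the 15 and also fell in F8/F4. It read -4.49 and -4.68 in M8/M4 and -1.85 in F8/F4, and the difference of -2.73 did not pass the test (adjusted p = 0.102). The remaining genes of the 15 that fell in both sexes were Bub1, a kinase of the mitotic checkpoint, Depdc1a and Ckap2l, which are expressed in mitosis, and the DNA glycosylase Neil3. Neil3 read -3.50 and -3.81 in males and -3.38 in females. Sybu read -2.59 and -6.09, the widest disagreement of the 15, and its call was lost without replicate 2 (adjusted p = 0.273), as were those of Hao2 (0.112) and the sulfotransferase Sult3a1 (0.187).

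At the other end, Obp2a, which encodes an odorant-binding lipocalin, had the highest ratio of the called genes with bright spots for M8 and M4. It read 3.88 and 4.79 in M8/M4 (mean 4.34, SE 0.44, adjusted p = 0.00142). In F8/F4, F8 was well above background on neither array and F4 on 1, so the size of the female change and of the sex difference was not measured. The fit called the difference (adjusted p = 0.0127). Mup20, the major urinary protein known as darcin, followed at 3.42 and 4.36, with 1.23 in F8/F4 and a difference of 2.66 (adjusted p = 0.0204). A second Mup20 probe read 3.55 and 4.88, with 1.87 in F8/F4 and a difference of 2.34 that did not pass the test (adjusted p = 0.0953). The dicarboxylate transporter Slc13a2 read 3.12 and 3.18, the closest pair of the 15.

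Major urinary proteins are lipocalins that bind pheromones and are made in quantity by liver. All 8 Mup genes on the array rose in both sexes, from 2.28 (Mup2) to 3.89 (Mup20) in M8/M4, with a median of 2.47 against 1.66 in F8/F4. Of the 11 Mup probes, only the first Mup20 probe passed the test of the sex difference. These genes are near-identical copies, so a probe may not separate them. Several other genes among the 15 highest followed the Mup probes over the 7 comparisons of the series (each the mean of 2 arrays). Of the 15, 5 genes other than Mup genes correlated with the mean Mup profile above 0.98 (Olfr910, Lipn, Cryaa, Atp12a and Rhox2e), and 9 above 0.95. Olfr910, an olfactory receptor gene, read 2.80 and 4.03, and Cryaa, a lens crystallin gene, read 2.74 and 3.85. A second, dimmer probe of Cryaa read -0.14, and a dimmer probe of the homeobox gene Lhx9 (3.34) read -0.17. A further Lhx9 probe, at -0.36, was too dim to be tested. Whether these probes recorded the transcripts they are named for was not tested. Without all probes above 0.98, a threshold set after the values were seen, 658 genes rose and 953 fell.

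**Figure D3:**
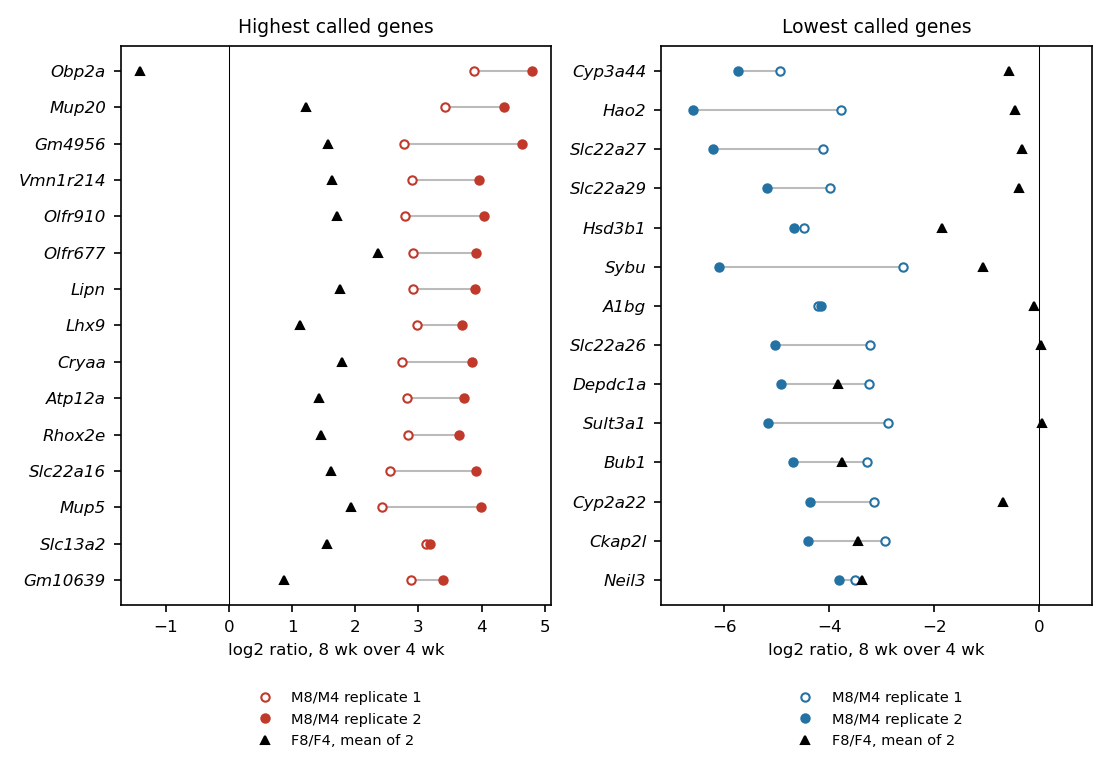
Log2 ratio of 8 wk over 4 wk (x axis) for the 15 highest and 14 of the 15 lowest called genes whose M8 and M4 signals each stood well above background, with open and filled circles for M8/M4 replicate 1 and 2 and triangles for the mean of F8/F4. The triangles of Obp2a and Slc22a16 rest on an F8 or F4 signal that was well above background on neither array. The triangles lie between 0 and the circles for most genes that rose, near 0 for most of the genes that fell and within or beside the pair of circles for Bub1, Depdc1a, Ckap2l and Neil3.

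Genes were then read by the gene lists of pathways and cell types, which were drawn up with earlier results of these data known. They held 810 tested genes. The share of members that rose or fell is plotted beside that of all tested genes, 4.46% and 6.39%, whose median log2 ratio was 0.02.

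**Figure D4:**
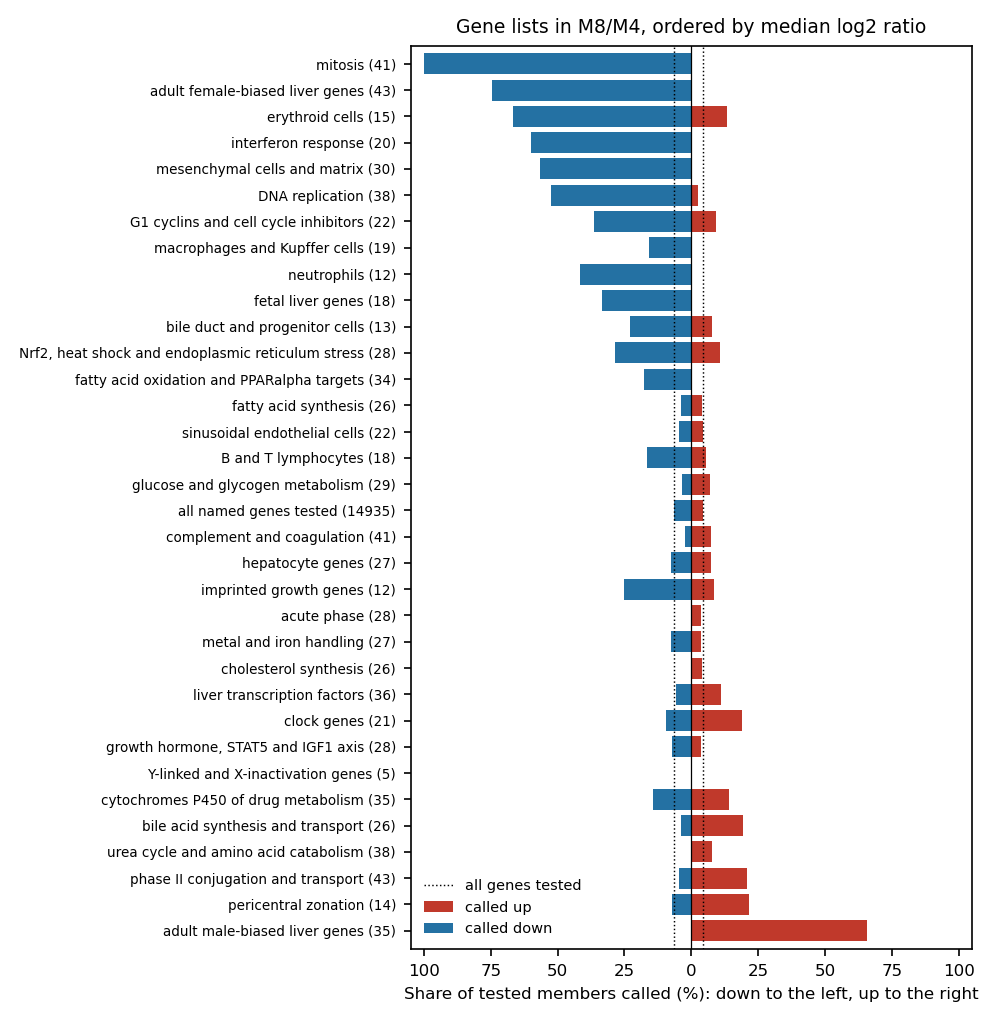
Share of the tested members of each gene list (number in brackets) that rose (red, right) or fell (blue, left) in M8/M4, in percent, ordered by the median log2 ratio of the list. Dotted lines mark the 4.46% and 6.39% of all tested genes. The mitosis and female-biased lists lie at one end, with 100% and 74.4% fallen, and the male-biased list at the other, with 65.7% risen.

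All 41 tested genes of mitosis fell in male liver, and all 41 fell in female liver. Their median log2 ratio was -2.79 in M8/M4 and -2.50 in F8/F4. Bub1, shown above for its place among the lowest genes, read -3.28 and -4.69, against -3.75 in F8/F4. Cdc20, which activates the anaphase-promoting complex, read -3.09 and -3.90, and Tpx2, which builds the spindle with Aurora A, read -2.92 and -4.04. The smallest change was that of Cenpa, the centromeric histone, at -1.03, with -0.93 in F8/F4. The male minus female differences ran from -0.59 to 0.54 with a median of -0.12, with a median SE of 0.27, and no member passed the test of the difference.

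In M8, 3 of the 41 were not well above background on either array, so only a lower bound of their fall was measured, with M8 set per array to its own signal or, where higher, the lowest signal measured above background. Ttk was at least 2.50-fold lower, Aurkb, the kinase of the chromosomal passenger complex, at least 2.29-fold and Cdc25c at least 1.75-fold. With these at their bounds the median of the list was -2.63, and 30 of the 41 were more than 4-fold lower in M8 and 13 more than 8-fold. All 41 fell without replicate 1 and all 41 without replicate 2, and 40 with pools taken as shared entered in the covariance, where Cdc25c lost its call (adjusted p = 0.0703). Because liver RNA was measured in bulk, fewer dividing cells and less of each transcript per cell cannot be told apart.

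Promoters of mitotic genes often hold a CHR element (TTTGAA or TTCGAA), which recruits the DREAM complex and its activating counterparts, together with CCAAT boxes bound by NF-Y. Promoter windows from 250 bases before to 50 after the transcription start were read from RefSeq (GRCm38.p6) for 34 of the 41 genes, which had 37 windows. On either strand, a CHR was found in 28 of the 37 (75.7%), against 19.2% of all 32851 promoter windows, and CCAAT in 26 (70.3%), against 37.4%. Both were in 23 (62.2%), against 7.52% of all windows and 115 of 888 windows of genes that fell. A match is a description of the letters and not a site. The windows of Bub1, Cdc20 and Ube2c, the 3 lowest members with a single window that holds both motifs, are shown with CHR and CCAAT matches of either strand in capitals. They are chr2:127831810-127832109 (minus strand), chr4:118437294-118437593 (minus strand) and chr2:164769679-164769978 (plus strand).
Bub1: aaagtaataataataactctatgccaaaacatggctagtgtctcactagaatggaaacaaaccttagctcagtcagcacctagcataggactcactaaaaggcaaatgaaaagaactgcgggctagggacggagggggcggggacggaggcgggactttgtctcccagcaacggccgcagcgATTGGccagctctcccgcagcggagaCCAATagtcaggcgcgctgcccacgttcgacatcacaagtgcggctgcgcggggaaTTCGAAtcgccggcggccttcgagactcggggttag
Cdc20: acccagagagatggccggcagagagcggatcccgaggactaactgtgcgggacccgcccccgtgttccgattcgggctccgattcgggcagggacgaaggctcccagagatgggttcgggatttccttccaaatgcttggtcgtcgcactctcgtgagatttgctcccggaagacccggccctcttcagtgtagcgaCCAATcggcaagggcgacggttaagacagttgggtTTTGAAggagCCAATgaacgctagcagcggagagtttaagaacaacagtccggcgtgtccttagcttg
Ube2c: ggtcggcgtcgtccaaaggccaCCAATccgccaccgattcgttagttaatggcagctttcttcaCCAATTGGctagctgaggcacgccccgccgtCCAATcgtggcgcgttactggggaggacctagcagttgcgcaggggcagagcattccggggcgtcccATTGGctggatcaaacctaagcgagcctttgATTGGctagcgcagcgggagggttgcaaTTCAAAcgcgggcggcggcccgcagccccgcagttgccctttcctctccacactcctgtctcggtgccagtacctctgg

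The Bub1 window held 1 CHR and 2 CCAAT matches, the Cdc20 window 1 and 2, and the Ube2c window 1 and 6. Ube2c encodes the ubiquitin-conjugating enzyme of the anaphase-promoting complex and read -3.21 and -3.58 in M8/M4.

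Of 38 genes of DNA replication, 20 fell and 1 rose, and the median was -0.68 in both sexes (-0.60 in M8/M4 with genes at their bounds). In female liver 21 fell, 19 of them genes that also fell in males. Uhrf1, which guides maintenance methylation to the replication fork, read -2.18 and -2.63. The licensing factor Cdc6 was at least 1.97-fold lower and the replication factor Ticrr at least 2.05-fold lower, since M8 was not well above background for either. Mcm10, a replication initiation factor named because it was the member that rose, read 1.25 and 1.81 (adjusted p = 0.0052), and read 1.36 in F8/F4. Without replicate 2 it was no longer called. The origin recognition subunit Orc1, also not well above background in M8, was at least 1.28-fold lower and lost its call without replicate 2 (adjusted p = 0.0908).

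Among 22 G1 cyclins, cyclin-dependent kinases, E2F factors and cell cycle inhibitors, 8 fell and 2 rose (median -0.50). Ccnd1, the cyclin D1 that carries growth signals into G1, read -1.66 and -2.28, against -0.52 in F8/F4, but the difference did not pass the test (adjusted p = 0.167). Ccne2, cyclin E2, fell by 2.07, with M8 well above background on 1 of the 2 arrays, and read -0.67 with normexp and loess. Cdkn1a, the p53-responsive inhibitor p21, read -1.87 and -1.61 on its brightest probe and 0.26 on a dimmer one. Of the inhibitors, Cdkn2b (p15) rose, at 1.30 and 1.27. Without replicate 2, 5 members fell, and the call of Ccnd1 was lost (adjusted p = 0.0519). Without replicate 1 the call of Ccne2 was lost (adjusted p = 0.0596).

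Adult female-biased liver genes formed the second list with a marked fall. Of 43 tested, 32 fell in M8/M4 (median -1.71, or -1.35 with genes at their bounds), while in F8/F4 2 fell and 3 rose (median 0.09). The members were chosen for their bias at 8 wk, and M8/F8 shares the M8 group with M8/M4, so the direction of the list is not independent evidence. The male change was lower than the female one for 23 of the 43, against 0.58% of all genes tested. M8/M4 minus F8/F4 equals M8/F8 minus M4/F4 on the log2 scale and so holds the bias by which members were chosen, and nothing is read from this count. The one member whose male change was the higher was Lpl, lipoprotein lipase, which read -1.29 in M8/M4 and -2.48 in F8/F4.

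The list held several P450s. Cyp2b9, a steroid hydroxylase, read -3.09 and -3.91 in M8/M4 and 0.38 in F8/F4 (difference -3.88, SE 0.36, adjusted p = 0.00881). All 3 tested Cyp2b genes fell in males, with F8/F4 ratios of 0.20 to 0.58. Outside the P450s, A1bg, an immunoglobulin-domain plasma protein, read -4.22 and -4.15 against -0.10 in F8/F4 (difference -4.09, SE 0.32, adjusted p = 0.00631). The sulfotransferase Sult2a2, which acts on steroids and bile acids, read -3.12 and -3.89 against -0.06. The peroxisomal transporter Abcd2 read -2.55 and -3.91 against 0.07.

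Regulators were also on the list. Cux2, a female-specific homeodomain repressor of male-biased genes, read -1.22 and -2.99. M8 was not well above background for Cux2, which was therefore at least 1.46-fold lower in M8. With normexp background correction and loess normalization its ratio was -0.55 and no longer called (adjusted p = 0.111). Prlr, the prolactin receptor, read -1.20 and -1.50 against -0.33 in F8/F4 (difference -1.02, adjusted p = 0.0463). Trim24, a nuclear receptor cofactor, fell by 1.01 on the log2 scale, and Tox, an HMG-box factor, read -0.58 in M8/M4 and 0.96 in F8/F4, where the difference of -1.54 passed the test (adjusted p = 0.0152).

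Side by side, the female-biased list had a median of -0.81 in M4/F4, where 23 of 43 were called female-higher, and of -2.35 in M8/F8, where 41 were and 1, Lpl, was called male-higher. These comparisons share male groups with M8/M4. Without replicate 1, 30 of the 43 fell, and without replicate 2, 26.

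Adult male-biased genes moved the other way. Of 35 tested, 23 rose (median 1.34, or 1.14 with genes at their bounds), against 3 in F8/F4 (median 0.26), and the same limit on independence holds. The male change was the higher for 10 of the 35, of which 8 rose, against 0.752% of all genes tested. Elovl3, a fatty acid elongase, read 2.63 and 3.48. Slc15a5, a peptide transporter family member, read 3.68 and 2.94, and since M4 was not well above background it was at least 1.52-fold higher in M8. Nox4, an NADPH oxidase, read 2.15 and 3.77, with 2.33 as the mean of a second probe (adjusted p = 0.00825 for the first). The calls of Elovl3 (adjusted p = 0.0717 without replicate 1 and 0.131 without replicate 2) and Nox4 (0.0833 without replicate 2) were not kept. Without replicate 1, 19 of the 35 rose, and without replicate 2, 16.

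The pi-class glutathione transferases Gstp1 and Gstp2 rose in males with negative ratios in F8/F4. Gstp2 read 2.31 and 3.42 against -0.36 (difference 3.23, SE 0.35, adjusted p = 0.0124), and Gstp1 read 1.85 and 3.07 against -0.32. These genes are close copies that a probe may not separate. Other genes with a higher male change were Adgrv1, an adhesion G protein-coupled receptor (2.26 and 2.37, against 0.21), Susd4, a complement regulator (2.28 and 2.86, against 0.51), Crhbp, which binds corticotropin-releasing hormone (2.27 and 2.73, against 0.55 in F8/F4, and 1.18 in M8/M4 with normexp and loess), and Dpy19l3, a C-mannosyltransferase (1.63 and 2.23, against -0.04). Lama3, a laminin chain, read 1.60 and 2.44 against -0.73, and its M8/M4 call was lost without replicate 2 (adjusted p = 0.0686). A second probe of Adgrv1, at -0.40, was too dim to be tested.

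STAT5 binds palindromes of the form TTCNNNGAA. On either strand, 6 of 40 windows of the female-biased list and 4 of 30 of the male-biased list (13.3%) held this form, against 8.3% of all windows. The counts are small and the windows cover only the start site. The windows of A1bg and Slc22a26, the lowest female-biased members with a single window that holds the form, and of Nox4, the highest such male-biased member, are shown with the match in capitals. They are chr15:60921221-60921520 (minus strand), chr19:7802618-7802917 (minus strand) and chr7:87246399-87246698 (plus strand).
A1bg: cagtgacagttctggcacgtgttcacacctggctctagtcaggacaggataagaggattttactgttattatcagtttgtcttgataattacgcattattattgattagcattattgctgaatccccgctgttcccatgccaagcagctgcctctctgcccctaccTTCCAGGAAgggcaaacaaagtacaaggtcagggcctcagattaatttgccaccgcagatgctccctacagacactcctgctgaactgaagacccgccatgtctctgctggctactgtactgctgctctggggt
Slc22a26: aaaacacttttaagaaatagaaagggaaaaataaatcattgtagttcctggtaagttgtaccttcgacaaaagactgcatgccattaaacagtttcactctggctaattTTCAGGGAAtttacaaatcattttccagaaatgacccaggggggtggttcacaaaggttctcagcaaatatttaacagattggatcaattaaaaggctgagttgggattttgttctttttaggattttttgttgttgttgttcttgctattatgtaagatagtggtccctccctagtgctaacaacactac
Nox4: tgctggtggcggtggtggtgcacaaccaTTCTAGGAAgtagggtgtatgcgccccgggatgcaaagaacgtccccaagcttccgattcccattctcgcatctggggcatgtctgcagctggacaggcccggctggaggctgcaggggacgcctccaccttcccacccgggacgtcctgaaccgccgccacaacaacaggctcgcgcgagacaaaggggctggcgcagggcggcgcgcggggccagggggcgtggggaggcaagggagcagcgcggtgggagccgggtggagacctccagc

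Slc22a26, an organic anion transporter, read -3.22 and -5.04 in M8/M4 and 0.02 in F8/F4, and the difference of -4.15 was not called (adjusted p = 0.0658).

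Receptors and signalling genes of growth hormone, STAT5 and IGF1 were called at about the share of all genes. Of 28 tested, 1 rose (3.57%, against 4.46%) and 2 fell (7.14%, against 6.39%), with a median of 0.16. Igfbp2, an IGF-binding protein, rose in males at 0.81 and 0.94, against -0.14 in F8/F4 (difference 1.02, adjusted p = 0.00484). Its probe is among those that correlated above 0.98 with the Mup profile. Igfbp3, the main carrier of IGF1 in serum, fell by 0.89, and Esr1, an estrogen receptor, read -1.14 and -0.61 against 0.16 in F8/F4. The Esr1 call was lost without replicate 1 (adjusted p = 0.0964) and the Igfbp3 call without replicate 2 (adjusted p = 0.214). Igf1 itself read -0.64 and -0.38 (adjusted p = 0.000425), short of the fold threshold, and -0.70 as the mean of all its probes, where it was called.

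Around them, the growth hormone receptor Ghr read 0.42 (SE 0.08), Stat5b 0.24 (SE 0.09) and Jak2 0.30, all under the fold threshold. The inhibitors Socs2 and Cish read -0.48 (SE 0.36) and -0.48 (SE 0.61), and Cish differed in sign between the arrays, at 0.35 and -1.31. Bcl6, a repressor of female-biased genes, read 0.24 (SE 0.46). Hnf4a and the other liver-enriched factors are among 36 transcription factors of which 4 rose and 2 fell. Pparg, the adipogenic nuclear receptor, read 1.59 and 1.30, and Ppard, its relative, read -1.31 and -1.85, with F8/F4 values of 0.93 and -1.81. Without replicate 2, 1 of the 36 rose and neither fallen gene was called, Ppard included (adjusted p = 0.0683).

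Among 35 other P450s of drug metabolism, 5 rose and 5 fell (median 0.18). Those that rose were Cyp2e1 and 4 Cyp2d genes, and those that fell were Cyp2a22 and 4 Cyp2c genes. Over all tested genes of these subfamilies, members of other lists included, 5 of 9 Cyp2d genes rose and 6 of 12 Cyp2c genes fell. Cyp2a22 was the furthest, at -3.15 and -4.38 against -0.69 in F8/F4 (difference -3.07, SE 0.31, adjusted p = 0.0102). Cyp2c37 read -1.53 and -1.27 against 0.35 in F8/F4 (adjusted p of the difference 0.0208), with -0.61 on a dimmer second probe. Of the Cyp4a fatty acid hydroxylases, 4 of 7 fell and 2 rose, with Cyp4a14 at -3.05 and the male-biased Cyp4a12a at 2.21 (adjusted p = 0.0423). Cyp4a12a lost its call when either array was left out (adjusted p = 0.0624 and 0.345). Members of these subfamilies are close in sequence, so a probe may read more than one. Without replicate 2, 3 of the 35 rose and 2 fell.

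Phase II enzymes and transporters leaned upward, with 9 of 43 risen and 2 fallen (median 0.28). Gsta1 and Gsta2, alpha-class glutathione transferases, read 3.03 (SE 0.62) and 3.07 (SE 0.58). Their calls needed both arrays (adjusted p from 0.0516 to 0.179 without one). Of 7 Ugt2b glucuronosyltransferases, 5 rose, with a median of 0.90 against 0.17 in F8/F4. Of 13 sulfotransferases, 6 fell and 1 rose. In bile acid synthesis and transport, 5 of 26 rose and 1 fell. Cyp7a1, the rate-limiting enzyme of the classic pathway, read 1.09 and 1.67, with 1.44 in F8/F4. Cyp8b1, the 12alpha-hydroxylase, read 0.79 and 1.51, and Cyp7b1, the oxysterol 7alpha-hydroxylase, read 1.63 and 3.19. Without replicate 2, 2 of the 26 rose, and Cyp7a1 (adjusted p = 0.0655) and Cyp7b1 (0.163) were no longer called.

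Fatty acid oxidation and other targets of PPARalpha gave 6 fallen genes of 34 (median -0.12). Vnn1, a pantetheinase, read -2.02 and -3.47 against -1.08 in F8/F4, and Cyp4a31 read -2.01 and -2.42 against 0.04 (adjusted p of the difference 0.014). Another probe of Cyp4a31 read -0.26. Acot1, a cytosolic thioesterase, fell by 1.83, and Fgf21, the fasting hormone, by 1.29. Without replicate 1, 4 of the 34 fell, and without replicate 2, 2, with Fgf21 lost both times (adjusted p = 0.105 and 0.244). Vnn1 lost its call without replicate 2 (adjusted p = 0.134).

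Other metabolic lists are given by their counts. In fatty acid synthesis 1 of 26 rose and 1 fell, in cholesterol synthesis 1 of 26 rose, in urea cycle and amino acid catabolism 3 of 38 rose, and in glucose and glycogen metabolism 2 of 29 rose and 1 fell. Prodh, proline dehydrogenase, rose by 0.96, and Ppp1r3c, a subunit that directs phosphatase 1 to glycogen, fell by 1.06 in males and 1.14 in females. Without replicate 2 no gene of fatty acid synthesis was called and none of glucose and glycogen metabolism rose. The losses were Lpin1 (adjusted p = 0.231), Pnpla3 (0.348, and 0.0964 without replicate 1), Aldoc (0.377) and Ppp1r3g (0.281, and 0.124 without replicate 1). Of 14 genes of the pericentral zone, 3 rose and 1 fell, with a median of 0.48. The member that fell, Lect2, lost its call when either array was left out (adjusted p = 0.0641 and 0.158), and Slc1a2 was lost without replicate 1 (0.121) and Sp5, under the fold threshold, without replicate 2. In iron and metal handling 1 of 27 rose and 2 fell, among them Alas1, the first enzyme of heme synthesis, at -0.82 on its brightest probe and -0.19 on the other. Alas1 lost its call when either array was left out (adjusted p = 0.15 and 0.135).

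Of 21 clock genes tested, 4 rose and 2 fell in M8/M4, and all 6 were called in the same direction in F8/F4. Dbp, a PAR-domain factor whose transcript cycles strongly, read 2.55 and 3.24, with 2.96 in F8/F4. Nr1d1, the repressor REV-ERBalpha, read 2.07 and 2.72, with 2.38 in F8/F4, while Nr1d2 rose by 2.05 and Tef read 1.18 and 1.63. Of the activators, Npas2 read -1.36 and -1.95 and Arntl -0.51 and -1.14 (adjusted p = 0.134). Cry1, a repressor, fell by 1.11. The hour at which mice were killed is not given in the sources used here, and its part in these values was not tested. Without replicate 2, 2 members rose, and the call of Dbp was lost (adjusted p = 0.0801). Npas2 lost its call when either array was left out (adjusted p = 0.0589 and 0.354), and neither fallen gene was called without replicate 1 or replicate 2.

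Of 20 interferon-responsive genes tested, 12 fell in M8/M4 (median -0.83) and 4 in F8/F4 (median -0.35), with 19 of 20 below 0 on both M8/M4 arrays. Cxcl10, a chemokine of the interferon response, read -1.39 and -2.37, against -0.77 in F8/F4, and the antiviral gene Rsad2 read -1.24 and -1.47, against -0.79. The male change was lower than the female one for 1 member, the GTPase gene Igtp. Without replicate 2, 5 of the 20 fell, and the calls of Ifi44 (adjusted p = 0.158) and Ifit1 (0.134) were lost. Ifi44 was also lost without replicate 1 (adjusted p = 0.0642).

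In complement and coagulation, 3 of 41 rose and 1 fell. C6, a component of the membrane attack complex, read 2.06 and 2.27 against 0.25 in F8/F4 (difference 1.92, SE 0.20, adjusted p = 0.0111). C9 of the same complex read 1.61 and 1.28 against 0.33 (difference 1.12, adjusted p = 0.0379), and Mbl2, a mannose-binding lectin, read -0.91 and -0.72 against -0.12 (difference -0.70, adjusted p = 0.0173). Of 28 acute phase genes 1 rose, Saa4, at 0.67 and 0.98. In the list of Nrf2, heat shock and endoplasmic reticulum stress, 8 of 28 fell and 3 rose. Hspa5, the chaperone BiP, read -0.88 and -1.23 and Creld2 -1.05 and -1.72, with -1.03 and -1.17 in F8/F4. Hspb1, a small heat shock protein, rose at 1.97 and 2.77. Without replicate 2, 1 of the 28 fell, and Hspa5 and Creld2 were not called (adjusted p = 0.0829 and 0.0769).

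Markers of other cells of the liver were read as whole lists. Of 15 erythroid genes, 10 fell in both sexes and 2 rose in males (median -1.44 in M8/M4 and -1.62 in F8/F4). In M8, 5 genes of the red cell membrane or blood groups were not well above background. Of these, Rhd was at least 3.35-fold lower, Kel at least 1.91-fold and Epb42 at least 1.78-fold. With bounds the list median was -0.89. The summed processed signal of the list was 131546 and 167113 for M8 and 270501 and 406359 for M4 in arbitrary units. The groups did not overlap, which was also so for lists of no cell type, such as G1 cyclins and interferon genes. Alas2, the erythroid heme enzyme, went the other way at 0.91 and 1.06, and lost its call without replicate 2 (adjusted p = 0.0884).

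Of 30 genes of mesenchymal cells and matrix, 17 fell (median -0.70), 15 of them also in F8/F4 (median -0.65). Col5a2 read -1.51 and -2.37, Col1a1, the main fibrillar collagen chain, -1.43 and -2.22, and Col3a1 -1.52 and -2.02, while elastin (Eln) read -1.60 and -1.70. The summed signal was 84761 and 87989 for M8 and 135439 and 181692 for M4, without overlap. Sums of 2 arrays against 2 did not overlap for several other lists either, among them macrophages (lower in M8) and imprinted growth genes (higher in M8). Of 12 neutrophil genes, 5 fell, all 5 also in F8/F4, with summed signals of 20494 and 27445 for M8 and 20980 and 27759 for M4, which overlapped. Ltf, lactoferrin, read -1.54 and -1.91, and -0.69 with normexp and loess. Without replicate 1, 2 of the 12 fell, and without replicate 2, 3. The neutrophil genes Mpo and Chil3 lost their calls when either array was left out.

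Of 19 macrophage and Kupffer cell genes, 3 fell (median -0.47). Marco, a scavenger receptor, read -1.32 and -1.80, with summed signals of the list at 68025 and 73002 for M8 and 83183 and 107352 for M4. Without replicate 1, 9 of the 19 fell, and without replicate 2, 1. In B and T lymphocytes 3 of 18 fell and 1 rose, in bile duct and progenitor cells 3 of 13 fell and 1 rose, and in sinusoidal endothelial cells 1 of 22 fell and 1 rose. No lymphocyte gene was called without replicate 1, and the endothelial gene that fell and the bile duct gene that rose each lost its call when either array was left out. The progenitor marker Prom1 read -2.54 and -2.98 against -0.82 in F8/F4 (difference -1.94, adjusted p = 0.0136) and is also on the female-biased list. The part of these cells in the changes of other genes was not tested.

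**Figure D5:**
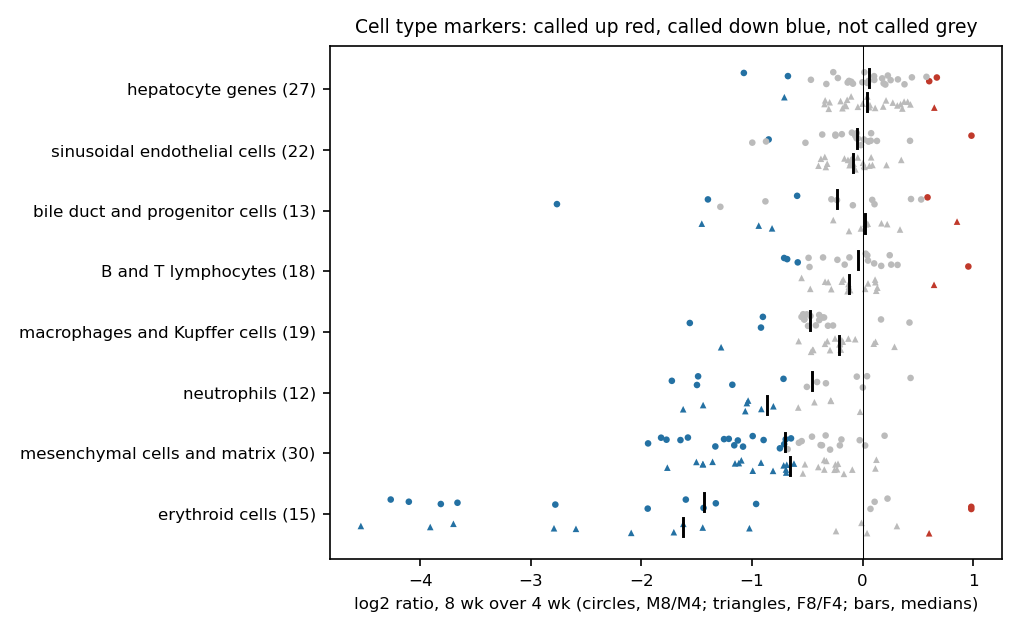
Log2 ratio of 8 wk over 4 wk (x axis) for each tested marker of 7 other cell types of liver and for hepatocyte genes (number in brackets), with circles for M8/M4, triangles for F8/F4 and bars for list medians. Called genes are red (up) or blue (down). The erythroid medians lie at -1.44 and -1.62 and the mesenchymal ones at -0.70 and -0.65, while the hepatocyte, endothelial and lymphocyte medians lie near 0.

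Hepatocyte genes were read to check the tissue. Of 27, 2 rose and 2 fell (median 0.05), and their summed signal overlapped between M8 and M4. Albumin (Alb) read -1.14 and -0.21 and Ahsg, fetuin A, -1.69 and -0.45. Both were called. Their array values differed by more than the SE of 0.10 and 0.07, but they are given before the dye term of the 14-array fit is taken out. With that term, Alb was -0.68 without replicate 1 and -0.67 without replicate 2, and Ahsg was -1.06 and -1.09. Alb lost its call when either array was left out. Fetal liver genes gave 6 fallen of 18, all 6 also fallen in F8/F4. Igf2bp3, an oncofetal RNA-binding protein, read -2.39 and -3.58 (-2.01 in F8/F4) and Spink1 -1.37 and -1.71. Spink1 lost its call when either array was left out (adjusted p = 0.162 and 0.128). Of the imprinted growth genes, 3 of 12 fell and 1 rose. Mest, an imprinted hydrolase gene, read -1.45 and -2.04, and Slc38a4, an amino acid transporter gene, rose by 1.15.

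Some called genes had a brightest probe that was measured in 1 group only. On that probe M8 was well above background on no array for 81 of the 954 genes that fell, and M4 for 38 of the 666 that rose. Of the latter, 1700001C19Rik was at least 4.36-fold higher in M8 (adjusted p = 0.0392), Stac2 at least 2.13-fold and Odf3l1 at least 1.77-fold. The call of 1700001C19Rik was lost when either array was left out (adjusted p = 0.141 and 0.242). Of the genes that fell, Cenpi, a centromere protein, was at least 2.46-fold lower, and Lrr1 was at least 2.55-fold lower on its brightest probe but read -1.20, also called, on a second probe.

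Another background correction made many ratios smaller. With normexp (offset 50) and loess, the value of 46 of the 159 called genes named by rule moved by over 1.5-fold, all 46 toward 0, and 21 of them are genes with a bound. Of the genes that fell, the values became -2.66 for Bub1, -2.47 for Depdc1a, -2.25 for Ckap2l, -2.83 for Tpx2, -2.04 for Neil3, -1.62 for Uhrf1, -3.16 for Sybu, -2.60 for Cyp2a22, -2.15 for Abcd2, -1.23 for Col5a2, -1.04 for Npas2 and -0.74 for Spink1. Of those that rose, they became 3.07 for Obp2a, 2.45 for Slc13a2, 2.50 for Atp12a, 2.70 for Lipn, 2.64 for Olfr910, 2.00 for Lhx9, 1.60 for Slc22a16 and 1.73 for Nr1d1. These 20 genes were called under both settings.

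The change from 3 to 8 wk was measured on other arrays that also carried M8 RNA. The paper's number of mice per sex and age is that of 2 pools, so M8/M3 and M8/M4 drew on the same M8 mice. Whether the same pools were hybridized is not stated outright. The genes that rose in M8/M4 had a median log2 M8/M3 of 1.21, and those that fell one of -1.22. By list, the M8/M4 and M8/M3 medians were -2.79 and -3.21 for mitosis, -1.71 and -1.99 for female-biased genes, 1.34 and 2.12 for male-biased genes, -0.46 and -1.78 for neutrophils and -0.83 and -0.77 for interferon genes. The shared group links these values, and they were not compared by a test.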

How the data were processed

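Liver RNA pools were hybridized on Agilent 2-colour arrays. Per the file headers, the authors' Feature Extraction software subtracted background, normalized the dyes (linear and LOWESS) and gave processed intensity and a log10 ratio of red over green per spot. Each ratio was turned to M8 over M4 by the channels in the labels, converted to log2, and averaged over spots of a probe after control and non-uniform spots were left out. The order of dyes in the study's methods differs from the labels for another comparison, and the labels were used. Probes were named through RefSeq (GRCm38.p6): 26055 of 39429 had a gene. With R 4.3.3 and limma 3.58.1, lmFit and eBayes were run on all 14 arrays with 7 comparisons and a dye term, and p-values were adjusted (Benjamini-Hochberg) over all probes and comparisons. M8/M4 minus F8/F4 was adjusted over its own probes. Calls needed at least 1 group well above background on both arrays. The SE therefore pools the spread of all arrays, and their number limits precision. Bounds set a group not well above background, per array, to the higher of its own signal and the lowest signal measured above background, after normexp, loess and Aquantile normalization. The fit was also run on simulated data with independent noise on each array. That run held no shared pools or mice, so it cannot show how the fit does where they are shared.

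The members and lists were chosen with earlier results of these data known. Named genes were the 15 highest and 15 lowest, up to 4 called genes with the largest change per list plus preset regulators, the 8 highest and 8 lowest sex differences and the 5 highest bounds each way. Other genes were named after their values were seen. Some genes are not reported here. Alternatives were another background correction and normalization, other models, blocks, thresholds, filters and probe rules, and each array left out.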

Additional observations from a re-analysis of the deposited data

Results flagged for a closer look

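The log2 change from 4 to 8 wk differed between male and female liver for 34 of the named genes (M8/M4 minus F8/F4 in limma, Benjamini-Hochberg adjustment, difference over 1.5-fold). Some of these were named because they passed this test, and others are on lists chosen for sex bias. Nothing is therefore read from the count of 34. Of all 15164 genes tested, the male change was higher for 0.752% and lower for 0.58%. Among the 34, the male change was the higher for 16. The fitted differences were Gstp2 3.23, Gstp1 2.78, Lama3 2.76, Mup20 2.66 and Adgrv1 2.11. The rest were Susd4 2.06, Dpy19l3 1.97, Crhbp 1.95, C6 1.92, Rhox2e 1.78, C9 1.12 and Igfbp2 1.02. For 4 others the fit gave Obp2a 5.74, Slc15a5 2.74, Odf3l1 2.46 and Slc22a16 1.61, but F8 or F4 was well above background on neither F8/F4 array, and for Slc15a5 and Odf3l1 M4 on neither M8/M4 array, so the size of these differences was not measured.

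The male change was the lower for 18 genes. The differences were Slc22a27 -4.84, Cyp3a44 -4.76, Slc22a29 -4.20, A1bg -4.09, Cyp2b9 -3.88, Sult2a2 -3.45, Acot3 -3.33, Abcd2 -3.30 and Cyp2a22 -3.07, and then Cyp4a31 -2.25, Prom1 -1.94, Cyp2c37 -1.75, Tox -1.54, Id1 -1.38, Prlr -1.02, Trim24 -0.79 and Mbl2 -0.70. Cux2 was fitted at -2.66, but M8 was well above background on neither array, so the size of its difference was not measured. Acot3 was called in opposite directions in the sexes. Each group had 2 arrays, so no array was screened as an outlier.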

How the results depend on the processing

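All 1620 M8/M4 calls rest on 2 pools per age and on a spread pooled over 14 arrays. With the arrays of the comparison only, limma called 0 genes up and 0 down, against 558 and 769 at an unadjusted p below 0.05, and 0 with a sex difference, against 291 higher and 268 lower in males. Up, down and sex-difference counts were 2212, 2212 and 318 with no fold threshold and 341, 471 and 125 with a 2-fold threshold. Leaving out 1 array gave 381 to 528 up, 587 to 822 down and 62 to 135 with a sex difference. The sex-difference count was 202 as reported, 121 with slide as a block, 0 with the age comparisons only, 69 with pools taken as shared in the covariance, 668 with 6 group means and 375 with error-weighted means. Of 159 named calls, 145 were kept with normexp and loess, 124 without replicate 1 and 104 without replicate 2, and of the called named genes Cryaa changed sign, which read -0.14 without the probes that followed the Mup probes, an alternative added after seeing the data. Named genes that were not called and changed sign without replicate 2 were Cish (0.31), Bcl6 (-0.11), Ppara (-0.12) and Per2 (-0.02), and Per2 also did with normexp and loess (-0.04). The sex difference was not run with the mean of all probes. The causes of these shifts were not tested.

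By the paper's number of mice, comparisons that hold the same group drew on the same mice. Whether they, or equal replicate numbers, share pools was not settled. Replicate 1 minus replicate 2 of M8/M4 correlated over genes with that of comparisons that hold M8 or M4 RNA at 0.583 (M8/M3), 0.128 (M8/F8) and -0.397 (M4/F4, where M4 is the numerator), and with the others at 0.324 (F8/F4), 0.287 (F8/F3) and -0.195 (M3/F3). With replicate number as a block, 669 genes rose, 946 fell and 214 differed between the sexes.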

Other observations

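Genes with wide ratios that were not called are given as values, chosen after their values were seen. Rgs16, a regulator of G protein signalling, read 2.54 and 4.32 in log2 M8/M4 (limma, adjusted p = 0.079) and 2.56 in F8/F4. Among acute phase genes, Saa1 read 1.43 and 3.28 (adjusted p = 0.0547) and Saa2 1.79 and 3.83 (adjusted p = 0.0594). The metallothionein Mt2 read 0.53 and 3.69 (adjusted p = 0.349). For all of these, replicate 2 was the higher array.

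Gene families grouped by symbol gave further counts, to be read beside the shares of all tested genes. These were 4.46% risen and 6.39% fallen in M8/M4, and 2.22% and 3.64% in F8/F4. Of 15 carboxylesterases (Ces), 4 rose and the median log2 M8/M4 was 0.34. Of 8 Serpina1 genes, which encode alpha-1-antitrypsins, 3 rose, with a median of 0.61 in M8/M4 and -0.12 in F8/F4. Of 20 centromere genes with symbols starting Cen, 13 fell, and 11 fell in F8/F4. Of 10 Gbp guanylate-binding protein genes, 5 fell, with medians of -0.74 in M8/M4 and -0.21 in F8/F4. Of 199 tested olfactory receptor genes (Olfr), 31 rose and 10 fell, against 5 and 2 in F8/F4, and Olfr910 was among those that followed the Mup probes. The share that fell was near that of all genes. Only 199 of 1056 on the array were bright enough to be tested. Some that rose, such as Olfr883, Olfr935 and Olfr1511, were tested only because M8 was bright, with M4 well above background on neither array, so the filter favoured genes that rose. What these olfactory receptor probes recorded was not tested.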
